A study of Mus musculus with 29 samples.

Results

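Signalling between heart muscle and its vessels was followed through 10 genes: the ligands Vegfa and Vegfb, their receptors Kdr (VEGFR2) and Flt1 (VEGFR1) with the co-receptor Nrp1, the angiopoietins Angpt1 and Angpt2 with their receptor Tek (Tie2), and the peptide apelin (Apln) with its receptor Aplnr. They were chosen by symbol from the 29955 genes of the expression table, and all 10 passed the filter of a mean of at least 0.5 FPKM (fragments per gene, divided by the length of its transcript and by the size of the library) that 12759 genes passed. C57BL6 mice, 3 months old at the start, drank water to which salt (1% NaCl) and L-NAME (0.3 mg/ml), which blocks the synthesis of nitric oxide, had been added for 5 weeks, and received angiotensin II at 0.7 mg/kg per day from an osmotic pump that lasted 28 days. Heart failure (HF) hearts were taken at weeks 3 and 5. Recovery hearts came from mice that went through the same 5 weeks, returned to normal water and were taken at weeks 7, 9, 11, 13 and 19, which the labels count as recovery weeks 2, 4, 6, 8 and 14.

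The 8 groups hold 24 libraries: Recovery week 19 and Control week 19 have 5 each, HF week 5 and Recovery week 11 have 3 each, and the remaining groups (HF week 3, Recovery weeks 7, 9 and 13) have 2 each. The controls were mice of the same strain, matched in age to week 19 of the protocol and given neither agent. Library numbers are those of the columns and name a library only. HF week 5 is therefore compared with controls that were 14 weeks older, and age and treatment cannot be told apart in that comparison. All other comparisons below, except that of Recovery week 19 with Control week 19, also set groups of different age against each other. Age cannot be told apart from treatment or recovery there either, and the columns of the week 5 controls were not used. The tissue is labelled whole ventricle from a whole heart, and the methods state that the frozen apical part was used. L-NAME blocks the enzyme that acts below VEGF and apelin receptors, so the model itself acts on a product of these pathways. No label says that mice were pooled, and p-values measure the spread between these libraries.

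VEGF-A, made by muscle and many other cells, drives vessel growth through KDR on endothelial cells, while FLT1 binds VEGF-A and VEGF-B tightly and can act as a trap. Neuropilin-1 holds VEGF-A close to KDR and also binds class 3 semaphorins. Angiopoietin-1, made by cells around vessels, activates TEK and keeps vessels quiet, and angiopoietin-2, released by endothelial cells, acts as a partial agonist or antagonist of TEK. Apelin is released by sprouting endothelial cells and acts through APLNR on vessels and on the contraction of heart muscle.

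3 libraries stood apart and touch every HF value below. The atrial light chain Myl7 was at 18388 FPKM in HF week 5 library 1, at 1805 and 5773 FPKM in the libraries of HF week 3, and at no more than 1.12 FPKM in the controls; HF week 5 libraries 2 and 3 were at 152 and 6.16 FPKM. Of 4 atrial genes tested, 4 were higher at HF week 5 than in the controls; at HF week 3, 3 were higher, and Nppa, the atrial natriuretic peptide, was listed at 0 in both libraries, against 81.1 to 345 FPKM in the controls. HF week 3 library 1 also listed 12816 genes above 0, against 16339 to 18091 in the others. Myh6, the main myosin of mouse heart muscle, was listed at 0 in all 13 libraries of weeks 5 and 19 and above 0 in the 11 others. Those 13 are not alike either: Myl2, the ventricular light chain, was listed at 0 in all 5 controls and at 10778 to 40595 FPKM in HF week 5 and Recovery week 19. The 10 highest genes held 14.6% to 18.8% of all FPKM in those 13 libraries and 27.9% to 37.4% in Recovery weeks 7 to 13. The HF week 3 libraries had 19.8% and 37.5%. Values of HF week 3 and Recovery weeks 7 to 13 may thus not be on the same footing as those of weeks 5 and 19. By the Myl2 values, the controls may also not be on the same footing as HF week 5 and Recovery week 19. Endothelial markers were present throughout: none of the 13 on the list was at 0 in any library.

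Promoter sequences are shown for the genes that passed the test at HF week 5, Tek, Nrp1 and Apln, and for the ligand Vegfa, so that they can be set side by side. They are RefSeq's (assembly GRCm38.p6, another build than that of the expression values), 250 bases upstream of the start, written 5′ to 3′ on the gene's strand, and 7 of the 10 genes had an entry. Tek lies at chr4:94739039-94739288 on the plus strand, Nrp1 at chr8:128358823-128359072 on the plus strand, Apln at chrX:48034854-48035103 on the minus strand and Vegfa at chr17:46032378-46032627 on the minus strand. Capitals mark a match to one of 3 motifs searched on both strands: ACGTG, the core of hypoxia response elements, GATAA, bound by GATA factors, and CCGGAA, bound by ETS factors.
Tek: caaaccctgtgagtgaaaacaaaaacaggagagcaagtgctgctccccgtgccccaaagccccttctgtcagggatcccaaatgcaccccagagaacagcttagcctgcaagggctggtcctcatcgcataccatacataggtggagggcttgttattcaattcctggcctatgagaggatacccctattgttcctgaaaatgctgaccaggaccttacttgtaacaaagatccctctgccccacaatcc
Nrp1: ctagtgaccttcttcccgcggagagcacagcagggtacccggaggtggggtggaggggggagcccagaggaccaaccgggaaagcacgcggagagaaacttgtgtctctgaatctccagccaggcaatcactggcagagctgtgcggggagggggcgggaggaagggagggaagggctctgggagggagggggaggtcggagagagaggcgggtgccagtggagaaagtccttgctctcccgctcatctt
Apln: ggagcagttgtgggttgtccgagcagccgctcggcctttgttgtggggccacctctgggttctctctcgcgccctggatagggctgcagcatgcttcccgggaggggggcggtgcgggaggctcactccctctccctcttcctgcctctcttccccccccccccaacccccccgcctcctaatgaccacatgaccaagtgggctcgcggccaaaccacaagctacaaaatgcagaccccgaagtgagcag
Vegfa: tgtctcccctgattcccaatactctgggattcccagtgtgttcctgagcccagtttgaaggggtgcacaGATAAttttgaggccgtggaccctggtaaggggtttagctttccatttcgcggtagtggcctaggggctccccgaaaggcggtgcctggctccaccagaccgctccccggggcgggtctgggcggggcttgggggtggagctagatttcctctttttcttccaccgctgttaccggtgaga
The Tek, Nrp1 and Apln windows hold none of the 3 motifs, and the Vegfa window holds 1 GATAA. A second Vegfa window, upstream of an inner start, holds 1 ACGTG, and the Kdr window 1 CCGGAA. Of 32851 mouse windows of the same length, 16.6% hold ACGTG, 22.6% GATAA and 12% CCGGAA. A match here is a run of letters and not evidence of binding.

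In Control week 19 the VEGF ligands were far above their receptors per transcript length. Vegfb averaged 391 ± 7.70 FPKM (SD, n = 5) and Vegfa 104 ± 23.0, against 15.8 ± 3.68 for Nrp1, 15.3 ± 1.59 for Kdr and 9.97 ± 0.803 for Flt1. Tek stood at 9.08 ± 1.57, Aplnr at 6.87 ± 2.99, Apln at 4.17 ± 0.417, Angpt1 at 3.64 ± 0.846 and Angpt2 at 1.72 ± 0.413. In that order Nrp1 and Kdr, Flt1 and Tek, Tek and Aplnr, and Apln and Angpt1 overlapped between libraries, and the other neighbours did not. Vegfb alone made up 69.7% of the summed FPKM of the 10 genes.

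**Figure D1:**
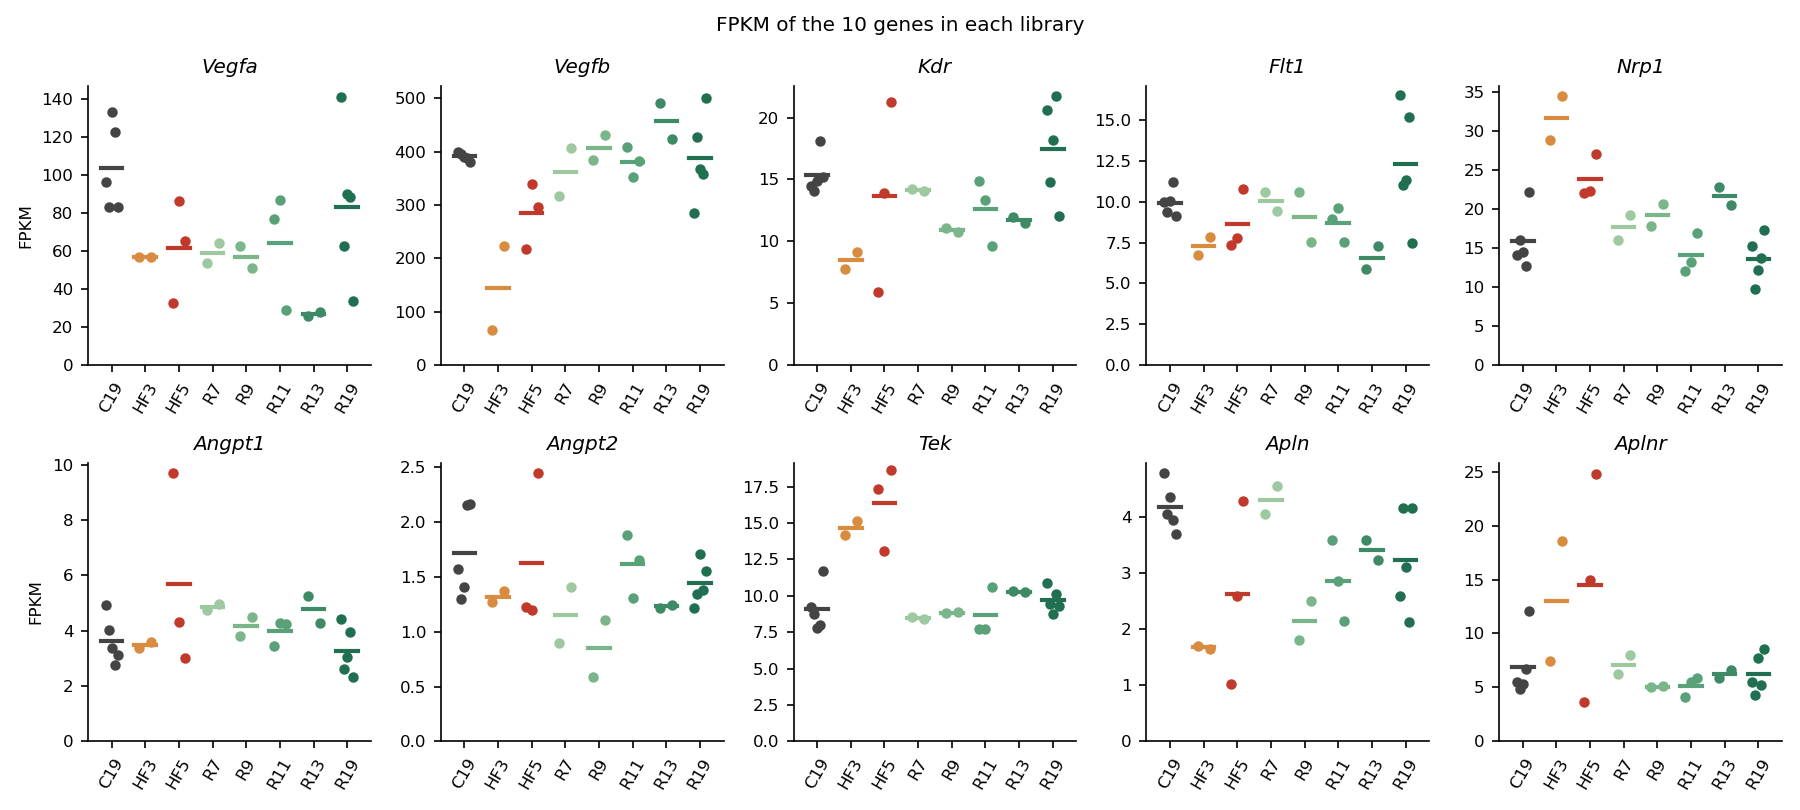
FPKM of each gene in each of the 24 libraries (vertical axis, linear from 0), by group: C19, Control week 19; HF3 and HF5, HF weeks 3 and 5; R7 to R19, Recovery weeks 7 to 19. Points are libraries and bars are group means; the HF5 points of Tek (13.1 to 18.6) lie above all points of C19 and R19, whereas the HF5 points of Kdr, Angpt1, Apln and Aplnr are spread widely.

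Between HF week 5 and Control week 19, 2 of the 10 genes rose and 1 fell, at an adjusted p under 0.05 (limma, Benjamini-Hochberg over all genes tested). Tek and Nrp1 rose and Apln fell. All genes tested passed at nearly the same rate, 24% (11.6% higher, 12.4% lower), so the share of these genes is close to the background. Of the genes called, 48.4% were higher, or 37.4% after median centring of the libraries. At an unadjusted p under 0.05, the threshold of the study's methods, Vegfa joined the lower ones, with 36.5% of all genes passing (17.7% lower). The median log2 fold change of the 10 genes was −0.15, and that of all genes 0.04. The libraries did not overlap for 2 of the 10 genes, Tek and Vegfb, against 29.5% of all genes.

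Tek, the receptor of both angiopoietins, was the steadiest of the changes. It was at 17.3, 13.1 and 18.6 FPKM in HF week 5 libraries 1 to 3 and at 9.20, 8.76, 7.76, 7.99 and 11.7 FPKM in the controls. Every HF library was above every control. Tek was 1.76-fold higher, which is 0.81 on the log2 scale with an SE of 0.135 (limma adjusted p = 0.000427). By Recovery week 19 it stood at 10.9, 9.46, 8.73, 10.1 and 9.32 FPKM, all below the HF libraries, and had fallen by 0.71 on the log2 scale from HF week 5 (SE 0.135, adjusted p = 0.00116). The rise did not rest on library 1: without it the log2 fold change was 0.76 (adjusted p = 0.00471) and the fall −0.66 (adjusted p = 0.0106). Already at HF week 3 Tek was at 14.2 and 15.1 FPKM, and at Recovery week 7 it was at 8.51 and 8.39 FPKM, 0.537 of the HF week 5 level (adjusted p = 0.00248). The latter fall passed without any single library, but its adjusted p was 0.0631 where only the compared groups were fitted.

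Nrp1, the co-receptor, was also higher in both HF groups. It was at 22, 22.2 and 27.0 FPKM in HF week 5 and at 14.0, 15.9, 14.5, 12.7 and 22.1 FPKM in the controls, so that control library 5 reached into the HF range. The log2 fold change was 0.59 (SE 0.177, adjusted p = 0.0209), or 1.50-fold. Nrp1 in Recovery week 19 was at 15.2, 9.76, 12.2, 13.7 and 17.3 FPKM, below all HF libraries, and differed from HF week 5 by −0.80 on the log2 scale (SE 0.177, adjusted p = 0.00342). The highest values of all were those of HF week 3, at 28.8 and 34.5 FPKM. At Recovery week 7 the difference from HF week 5 was −0.42 and did not pass (adjusted p = 0.208). The rise at HF week 5 is close to the threshold: its adjusted p was 0.0521 without HF library 1, 0.0930 without HF library 3, 0.0547 without control library 4 and 0.0516 without a filter on low values. The fall towards week 19 passed the test without any single library (adjusted p 0.00149 to 0.0204).

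Other cell type lists moved beside Tek and Nrp1. Of 13 endothelial markers, 6 were higher in HF week 5 than in the controls and 0 lower (all genes 11.6% and 12.4%), with a median log2 fold change of 0.42 and sums of 3298 to 4428 FPKM against 2118 to 4376 FPKM. Vwf was higher by 1.90 on the log2 scale (adjusted p = 0.000403) and Pecam1 by 0.51 (adjusted p = 0.0261), and Cdh5, the adhesion protein of endothelial junctions, differed by −0.03 (adjusted p = 0.925). All 3 endocardial markers were higher, with sums of 55.9 to 237 FPKM against 14.3 to 26.8 FPKM, and so were 6 of 8 fibroblast and 4 of 8 pericyte and smooth muscle markers, while 1 of the latter was lower. Of 10 cardiomyocyte markers, 1 was higher, Myl2, which is listed at 0 in the controls, and 2 were lower. Without HF week 5 library 1, where the share of all genes called was 10.7%, 3 of 13 endothelial (median 0.29), 2 of 3 endocardial, 1 of 8 fibroblast (median 0.48) and 3 of 8 pericyte and smooth muscle markers (median 0.69) were higher. The 4 atrial genes tested all stayed higher (median 3.69), so values without library 1 are not free of atrial signal. In whole tissue, fewer cells of a type and less RNA per cell cannot be told apart, nor can more of either.

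Setting each library to the mean of its 13 endothelial markers moved the median of all genes from 0.04 to −0.45 at HF week 5 against the controls, where 275 genes then passed as higher and 5935 as lower, and values on that scale are to be read against this shift. On that scale Tek still rose, by 0.32 (SE 0.124, adjusted p = 0.0381), and Nrp1 differed by 0.10 (adjusted p = 0.638). 6 genes then passed as lower: Vegfa at −1.33 (adjusted p = 0.0107), Apln at −1.22 (adjusted p = 0.00112), Vegfb at −0.98 (adjusted p = 0.00468), Kdr at −0.82 (adjusted p = 0.0178), Flt1 at −0.70 (adjusted p = 0.0103) and Angpt2 at −0.59 (adjusted p = 0.0112). The rises at HF week 3 did not pass either, with Nrp1 at 0.20 (adjusted p = 0.346) and Tek, turned in direction, at −0.13 (adjusted p = 0.434), where the median of all genes was −0.85. Between HF week 5 and Recovery week 19, where the centred median of all genes was 0.44 and 5772 genes passed as higher and 274 as lower, the falls of Tek (−0.23, adjusted p = 0.129) and Nrp1 (−0.32, adjusted p = 0.108) no longer passed, nor did that of Tek from HF week 5 to Recovery week 7 (−0.29, adjusted p = 0.124). Kdr (0.97), Flt1 (0.94), Vegfb (0.93) and Apln (0.85) passed as higher at week 19, 4 of the 10 genes on a scale where most calls were higher.

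**Figure D2:**
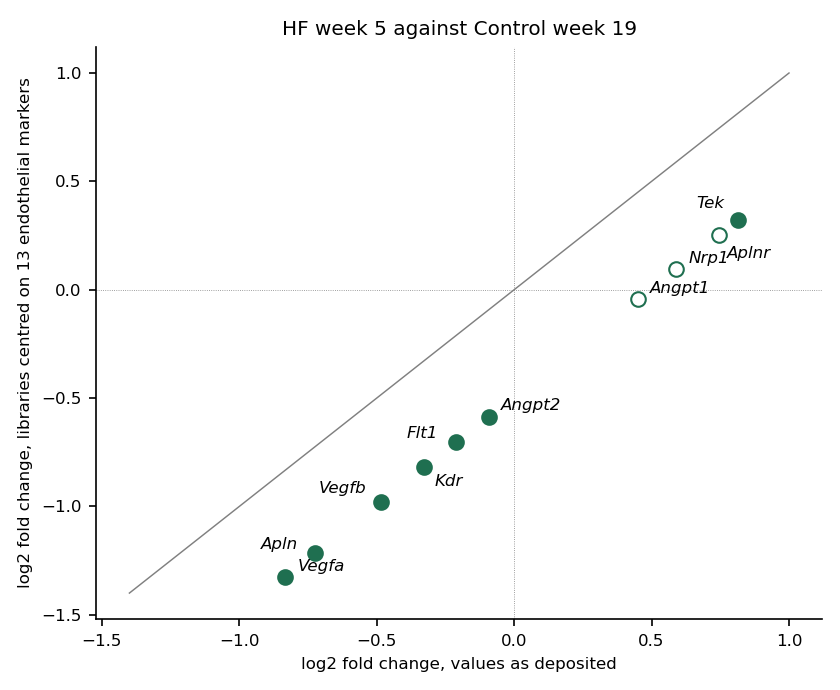
Log2 fold change of each gene between HF week 5 and Control week 19 with the values as deposited (horizontal axis) and after each library was centred on the mean of its 13 endothelial markers (vertical axis). Filled points passed an adjusted p under 0.05 after centring and the grey line marks equal values; Tek stays above 0 (0.32) and Vegfa is lowest (−1.33).

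Of the VEGF ligands, Vegfb passed as lower at HF week 3, and Vegfa passed at neither HF week, in the fit of all groups with values as deposited. Vegfb, in Control week 19, lay between 380 and 400.05 FPKM, the narrowest spread of the 10 genes relative to its mean. In HF week 5 it was at 217, 340 and 295 FPKM, below all controls, and differed from them by −0.49 on the log2 scale (SE 0.259, adjusted p = 0.184). That difference passed where the HF week 3 libraries were left out of the fit (adjusted p = 0.0243), as did the rise to Recovery week 19 (0.45, adjusted p = 0.0352), and where only the compared groups were fitted (adjusted p = 0.0363). By Recovery week 19 it was at 285, 428, 367, 359 and 501 FPKM, on both sides of the controls. In HF week 3 the libraries were at 65.3 and 223 FPKM, which differs from the controls by −1.69 on the log2 scale (SE 0.297, adjusted p = 0.000149). Library 1, which lists fewer genes, holds the lower value, and without it the difference was −0.81 (adjusted p = 0.0154).

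Vegfa was at 32.6, 86.5 and 65.1 FPKM in HF week 5 and at 96.3, 83.1, 133, 123 and 83.4 FPKM in the controls. The log2 fold change was −0.83 (SE 0.386, unadjusted p = 0.0430, adjusted p = 0.123). HF library 1 was the lowest, and without it the difference was −0.44 (adjusted p = 0.548). At HF week 3 both libraries, at 56.9 and 56.8 FPKM, were below all controls (−0.83, SE 0.442, adjusted p = 0.121). Vegfa passed as lower there where only the compared groups were fitted, and after centring on the endothelial markers. In Recovery week 19 Vegfa ran from 33.4 to 141 FPKM, the widest range of any group, with values of 141, 62.6, 90.1, 88.2 and 33.4 FPKM, and it overlapped with both other groups. The lowest values of the series were in recovery: 25.9 and 28.1 FPKM at week 13, and 29.0 FPKM in Recovery week 11 library 3.

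The lowest and highest Vegfa levels in recovery lay in libraries that also differed in another property. The slope of log2 FPKM on transcript length, per doubling of length and relative to the mean of all libraries, was lowest in Recovery week 19 library 5 (−0.0834), Recovery week 13 libraries 1 and 2 (−0.0642 and −0.0597) and Recovery week 11 library 3 (−0.0621), which are the 4 recovery libraries with the lowest Vegfa. It was highest in Recovery week 19 library 1 (0.103), which has the highest Vegfa. Most other recovery libraries lay in this order too, such as Recovery week 19 library 4 (0.0534 with 88.2 FPKM) and Recovery week 9 library 2 (−0.0378 with 50.9 FPKM). The clearest exceptions were Recovery week 7 library 1, with the second highest slope (0.0697) and a Vegfa of 53.7 FPKM, and Recovery week 11 library 1 (−0.0317 with 76.8 FPKM). With each library's trend on transcript length and GC content removed, the Vegfa difference between Recovery week 13 and the controls was −1.94, against −1.90 before. The length used for Vegfa was the median over its annotated transcripts, 874 bases, which need not be that of the transcripts measured. The step therefore cannot decide on the part of transcript length, which was not tested. That difference had an unadjusted p of 0.000369 and an adjusted p of 0.151 in the fit of all groups, and an adjusted p of 0.00572 where only the compared groups were fitted.

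Kdr, the main signalling receptor of VEGF-A, showed no single level in HF week 5, at 5.86, 13.9 and 21.3 FPKM. The controls were at 14.5, 14.1, 14.8, 18.1 and 15.2 FPKM, inside the HF range. The log2 fold change was −0.33 (SE 0.263, adjusted p = 0.394), 0.17 without HF library 1 and −0.72 without HF library 3 (adjusted p = 0.0454), so the direction depended on 1 library. In HF week 3 both libraries, at 7.76 and 9.13 FPKM, were below all controls, with a difference of −0.82 (SE 0.302, adjusted p = 0.0292) that did not pass without library 1 (−0.71, adjusted p = 0.189) or without a filter on low values (adjusted p = 0.0794). Flt1, its high-affinity partner, was at 7.37, 7.77 and 10.8 FPKM in HF week 5 and at 9.97, 9.40, 10.1, 11.2 and 9.15 FPKM in the controls, and the difference was −0.21 on the log2 scale (SE 0.192, adjusted p = 0.456). Flt1 in Recovery week 19 was at 16.6, 11.1, 11.4, 15.2 and 7.49 FPKM, 0.46 above HF week 5 (SE 0.192, adjusted p = 0.0867). Without Recovery library 5, the lowest one, that difference was 0.62 and passed (adjusted p = 0.00957).

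The angiopoietins did not pass the test. Angpt1 was at 9.72, 4.30 and 3.02 FPKM in HF week 5 and at 4.92, 4.03, 3.36, 2.78 and 3.13 FPKM in the controls. Library 1 alone was above the control range, and the log2 fold change of 0.45 (SE 0.251, adjusted p = 0.206) was 0.01 without it and 0.78 without library 3 (adjusted p = 0.0345). Angpt1 in Recovery week 19 was at 4.41, 2.63, 3.07, 3.94 and 2.34 FPKM. Angpt2, the lowest of the 10 genes, was at 1.22, 1.20 and 2.45 FPKM in HF week 5 and at 1.57, 1.30, 1.41, 2.16 and 2.17 FPKM in the controls, a difference of −0.09 on the log2 scale (SE 0.195, adjusted p = 0.762) with a 95% interval of −0.50 to 0.31. Its lowest group mean was that of Recovery week 9, with 0.59 and 1.11 FPKM, which differ from the controls by −0.72 on the log2 scale with an unadjusted p of 0.00419 and an adjusted p of 0.880.

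Apelin fell in both HF groups, at week 5 only narrowly. Apln was at 1.70 and 1.65 FPKM in HF week 3, at 1.02, 2.59 and 4.28 FPKM in HF week 5 and at 4.78, 4.05, 4.36, 3.94 and 3.70 FPKM in the controls. Both HF week 3 libraries were below all controls, and HF week 5 library 3 was inside the control range. The log2 fold change was −1.10 at HF week 3 (SE 0.298, adjusted p = 0.00508) and −0.72 at HF week 5 (SE 0.260, adjusted p = 0.0491). The latter was −0.28 without HF library 1 (adjusted p = 0.463) and −1.10 without HF library 3 (adjusted p = 0.00480). The call at HF week 5 was lost in 12 of 20 alternatives, in all of which Apln stayed lower. At Recovery week 7 Apln was at 4.05 and 4.55 FPKM, inside the control range, and at Recovery week 9 at 1.80 and 2.50 FPKM, below it. At Recovery weeks 11 (3.59, 2.85 and 2.15 FPKM) and 13 (3.58 and 3.23 FPKM) all libraries were below the controls too, with differences of −0.49 and −0.25 on the log2 scale (adjusted p = 0.640 and 0.782). The share of all genes whose libraries do not overlap is not given for weeks 9, 11 and 13. The separation at these weeks is therefore not read as a lasting fall. The week 9 difference was −0.83 (unadjusted p = 0.0119, adjusted p = 1). Recovery week 19 had 2.60, 4.16, 3.11, 2.12 and 4.15 FPKM.

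Aplnr, the apelin receptor, had the widest spread of the 10 genes relative to its mean in HF week 5, at 3.61, 15.0 and 24.8 FPKM. The controls had 5.48, 4.82, 5.30, 6.68 and 12.1 FPKM, so that library 1 was below all controls and the other two above them. The log2 fold change of 0.75 (SE 0.418, adjusted p = 0.207) was 1.50 without library 1 (adjusted p = 0.00850), and that between HF week 5 and Recovery week 19 went from −0.83 (SE 0.418, adjusted p = 0.155) to −1.59 (adjusted p = 0.00549). Library 1 is the library in which the atrial genes were highest and Kdr, Apln and Aplnr lowest among those of HF week 5; the part of atrial tissue in these values was not tested. In HF week 3 Aplnr was at 7.45 and 18.6 FPKM, and in Recovery week 19 at 5.48, 4.28, 7.77, 5.22 and 8.58 FPKM.

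**Figure D3:**
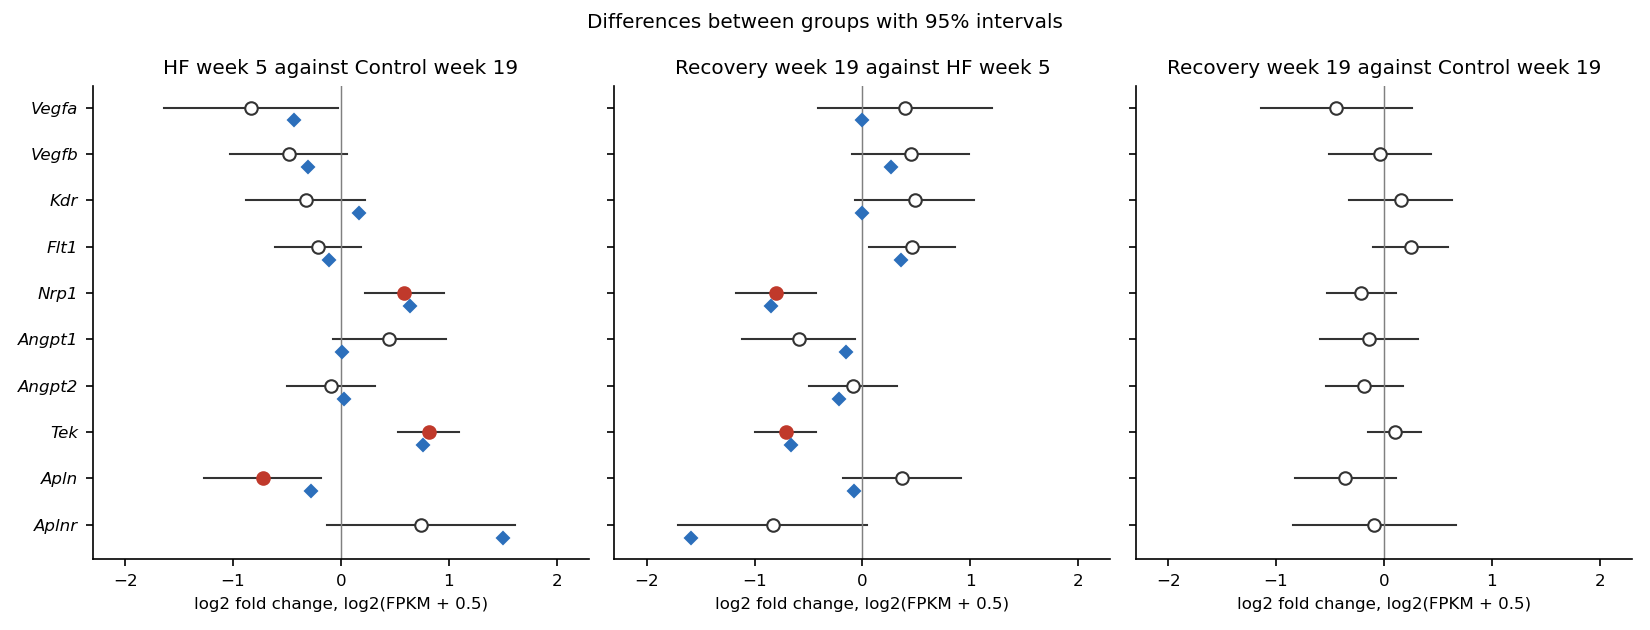
Log2 fold change of each gene (circles) with its 95% interval in 3 comparisons, on the log2(FPKM + 0.5) scale. Red circles passed an adjusted p under 0.05 and blue diamonds give the value without HF week 5 library 1; Tek and Nrp1 barely move without it, Aplnr moves from 0.75 to 1.50, and no gene passed between Recovery week 19 and Control week 19.

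Between HF week 5 and Recovery week 19, 0 of the 10 genes rose and 2 fell, Tek and Nrp1, against 24.2% of all genes (12.3% higher, 12% lower). The same HF libraries stand in both comparisons, so the opposite signs are not separate evidence. The share of all genes whose libraries do not overlap is not given for this comparison. The separation of Tek and Nrp1 has no background here to be read against. Markers were lower with them: 5 of 13 endothelial, 2 of 3 endocardial, 5 of 8 pericyte and smooth muscle (2 higher) and 3 of 8 fibroblast markers, whose part in the falls was not tested. Without HF week 5 library 1, 3 genes fell, Aplnr being the third, where 12.2% of all genes passed. Without HF week 5 library 3, 3 genes rose, Kdr (0.88, adjusted p = 0.0179), Apln (0.75, adjusted p = 0.0398) and Flt1 (0.62, adjusted p = 0.0451), and Angpt1 fell (−0.92, adjusted p = 0.0151) beside Tek and Nrp1.

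Between Recovery week 19 and Control week 19, 0 of the 10 genes passed the adjusted threshold and 0 passed an unadjusted p under 0.05 (limma), against 0.0235% and 2.88% of all genes. The log2 fold changes ran from −0.44 for Vegfa (95% interval −1.14 to 0.26) to 0.25 for Flt1 (−0.10 to 0.60). The interval of Tek, −0.14 to 0.34, was the narrowest, and that of Aplnr, −0.84 to 0.67, the widest. No gene had groups that did not overlap, against 1.17% of all genes. Differences of the size of the intervals were not excluded.

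At HF week 3, 2 of the 10 genes were higher than in the controls, Nrp1 by 1.00 (SE 0.202, adjusted p = 0.000532) and Tek by 0.67 (SE 0.155, adjusted p = 0.00146), and 3 were lower, Vegfb, Apln and Kdr; centred on the endothelial markers, Tek turned to −0.13. This is 5 of 10, where 50.7% of all genes passed (23.1% higher, 27.6% lower). On the centred scale 0 of the 10 passed as higher and 7 as lower, where 551 of all genes were higher and 8536 lower. Where only the compared groups were fitted, Flt1 and Vegfa joined the lower ones. The groups did not overlap for 7 of the 10, against 45.3% of all genes. Marker lists moved here too: 8 of 13 endothelial, 3 of 3 endocardial and 6 of 8 fibroblast markers were higher, and 5 of 10 cardiomyocyte markers lower and 2 higher, and their part in these values was not tested. Kdr dropped out without library 1 and without a filter; Nrp1, Tek, Vegfb and Apln passed without either library. From HF week 3 to HF week 5, 1 of the 10 passed (21.4% of all genes, 13.1% lower), Vegfb, lower at week 3 by −1.20 (adjusted p = 0.0185), and it did not pass in 4 of 15 alternatives: without HF week 3 library 1 (−0.32, adjusted p = 0.728), without HF week 5 library 2 (adjusted p = 0.0651), without a filter (adjusted p = 0.0513) and where only the compared groups were fitted (adjusted p = 0.533). From HF week 5 to Recovery week 7, 1 of the 10 passed (14.8% of all genes, 6.75% lower), Tek, which was lower. Of the markers, 6 of 13 endothelial, 3 of 3 endocardial and 3 of 8 fibroblast ones were lower as well, and their part was not tested. Centred on the endothelial markers, 3 of the 10 passed as higher, Apln, Flt1 and Vegfb, and 0 as lower. On that scale 5741 of all genes were higher and 154 lower.

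In Recovery weeks 7, 9, 11 and 13, each against Control week 19, 0 of the 10 genes passed the adjusted threshold. The shares of all genes were 0.047%, 0.0549%, 0.149% and 0.0784%. At an unadjusted p under 0.05, 0 passed at week 7, where 3.61% of all genes did. 2 passed at week 9, Angpt2 and Apln, both lower, with 3.6% of all genes (1.61% lower). At week 11 only Vegfa did, at −0.81 (unadjusted p = 0.0492), with 8.45% of all genes (3.56% lower). At week 13 Vegfa and Flt1 (−0.57, unadjusted p = 0.0175) were lower and Nrp1 higher (0.46, unadjusted p = 0.0346; Vegfa and Flt1, the latter at an adjusted p of 0.0442, passed where only the compared groups were fitted), with 10.4% of all genes (6.25% lower, 4.18% higher). With 2 or 3 libraries a group, these fits lean on the spread of the other groups.

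Ratios of paired family members were compared as well, and are given as plain FPKM ratios, in which the scaling of a library cancels. The tests used log2 ratios after 0.5 FPKM was added to each gene, so the scaling cancels there only in part. Angpt2 to Angpt1 was 0.506 ± 0.214 in Control week 19 (SD, n = 5), 0.406 ± 0.361 in HF week 5 (n = 3) and 0.472 ± 0.158 in Recovery week 19 (n = 5). The HF libraries ran from 0.126 in library 1 to 0.813 in library 3, on both sides of the controls. Vegfa to Vegfb was 0.265 ± 0.0595 in the controls, 0.208 ± 0.0531 in HF week 5 and 0.240 ± 0.161 in Recovery week 19. It was lowest at Recovery week 13, at 0.0595 ± 0.00963 (n = 2). Flt1 to Kdr was 0.652 ± 0.0382, 0.775 ± 0.419 and 0.700 ± 0.0787 in the same order. Over 9 two-sided exact permutation tests of the log2 ratio, all adjusted p were 0.929, and the smallest p that 3 against 5 libraries allow is 0.0357 before adjustment, so that no single HF ratio could have passed after it.

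**Figure D4:**
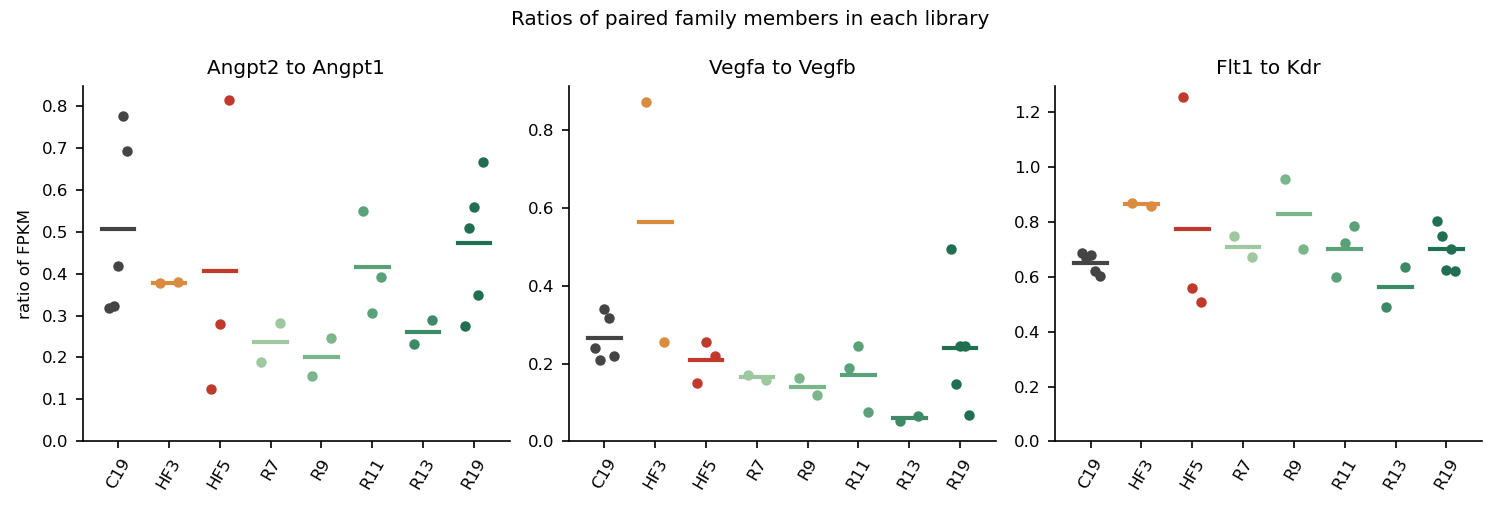
Ratio of FPKM of Angpt2 to Angpt1, Vegfa to Vegfb and Flt1 to Kdr in each library (vertical axis, linear from 0), by group as in the plot of single genes; bars are group means. The control libraries of Flt1 to Kdr lie close together (0.602 to 0.688), and those of HF5 run from 0.508 to 1.26.

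Other ligands and receptors of these families were followed from a list of 13, of which 12 are in the table and 10 were tested. In HF week 5 against the controls 2 were higher and 0 lower, with a median of 0.12, where 11.6% of all genes were higher and 12.4% lower. Vegfc, the lymphatic growth factor, was higher by 0.88 (SE 0.254, adjusted p = 0.0167) and Sema3f, a neuropilin ligand that repels vessels, by 0.70 (SE 0.168, adjusted p = 0.00594). Tie1, the orphan partner of TEK, was at 47.7 ± 8.37 FPKM against 39.0 ± 0.524 FPKM in the controls (adjusted p = 0.0650). Between Recovery week 19 and HF week 5, 0 were higher and 2 lower, Vegfc (−0.81) and Sema3f (−0.67), against 12.3% and 12% of all genes. Without HF week 5 library 1, Vegfc held (1.26, adjusted p = 0.00285), Sema3f did not (0.42, adjusted p = 0.0721) and Tie1 passed (0.38, adjusted p = 0.0333); in Recovery week 19 against HF week 5 Vegfc alone then passed as lower, with Sema3f at −0.39 (adjusted p = 0.0881).

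Genes that carry the signal inside the cell were followed next. Of 24 listed and 23 tested, 2 were higher and 6 lower in HF week 5 and 15 did not pass, with a median of −0.07, where 11.6% of all genes were higher and 12.4% lower. Among the lower ones were the PI3-kinase regulatory subunit Pik3r1 (−1.16, SE 0.203, adjusted p = 0.000626), Akt1 (−0.68), the adaptor Grb2 (−0.43) and the kinase Map2k1 (−0.87). The higher ones were Nos3, the endothelial nitric oxide synthase, which L-NAME inhibits (0.83, SE 0.212, adjusted p = 0.00871), and Foxo1, a transcription factor held back by AKT (0.56, adjusted p = 0.0129). In Recovery week 19 against HF week 5, 6 were higher, among them Pik3r1 (1.08), Map2k1 (0.98), Akt1 (0.79) and Grb2 (0.44), and 1 lower, Nos3 (−0.63), against 12.3% and 12% of all genes; both comparisons hold the same HF libraries. Without HF library 1 that list had 5 higher and 0 lower in Recovery week 19, with Nos3 at −0.38 (adjusted p = 0.273). Against the controls, 6 were lower in HF week 5 without library 1, among them Pik3r1 (−1.13), Map2k1 (−0.90), Akt1 (−0.61) and Grb2 (−0.44), and neither Nos3 (0.58, adjusted p = 0.0979) nor Foxo1 (0.46, adjusted p = 0.0934) passed.

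Of 10 genes of tip cells and sprouting, 9 were tested, and 1 was higher in HF week 5, Igfbp3, which binds insulin-like growth factors (1.55, SE 0.207, adjusted p = 8.36e-05); 0 were lower, and the median was 0.28, where 11.6% of all genes were higher. Without library 1 and at a share of 10.7% of all genes called, 3 were higher: Igfbp3 (1.23), the Notch ligand Dll4 (0.72, adjusted p = 0.00196) and Ets1 (0.60, adjusted p = 0.0408). From HF week 5 to Recovery week 19, 2 fell, Igfbp3 (−1.23) and Dll4 (−0.51), where 12% of all genes were lower.

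Of 14 genes of the hypoxia response, through which Vegfa is known to be induced, 13 were tested, and 1 was higher and 4 lower in HF week 5, with a median of −0.17, against 11.6% higher and 12.4% lower among all genes. Without library 1 the counts were 1 and 3. The oxygen sensors Egln3 (−1.43, SE 0.203, adjusted p = 0.000139) and Egln1 (−0.74, adjusted p = 0.00274), and the glycolytic enzymes Pgk1 (−0.39) and Ldha (−0.37), were lower. Vhl, which marks HIF proteins for destruction, was higher (0.36, adjusted p = 0.00450). In Recovery week 19 against HF week 5, 3 were higher, Egln3 (1.16), Egln1 (0.70) and Pgk1 (0.41), and 2 were lower, Hif1a (−0.38) and Vhl (−0.37), against 12.3% and 12% of all genes. Without HF library 1, 3 were higher and 1 lower, and Hif1a no longer passed (adjusted p = 0.0613). None of the tested genes on these 4 lists passed between Recovery week 19 and Control week 19 (limma, adjusted or unadjusted p under 0.05).

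**Figure D5:**
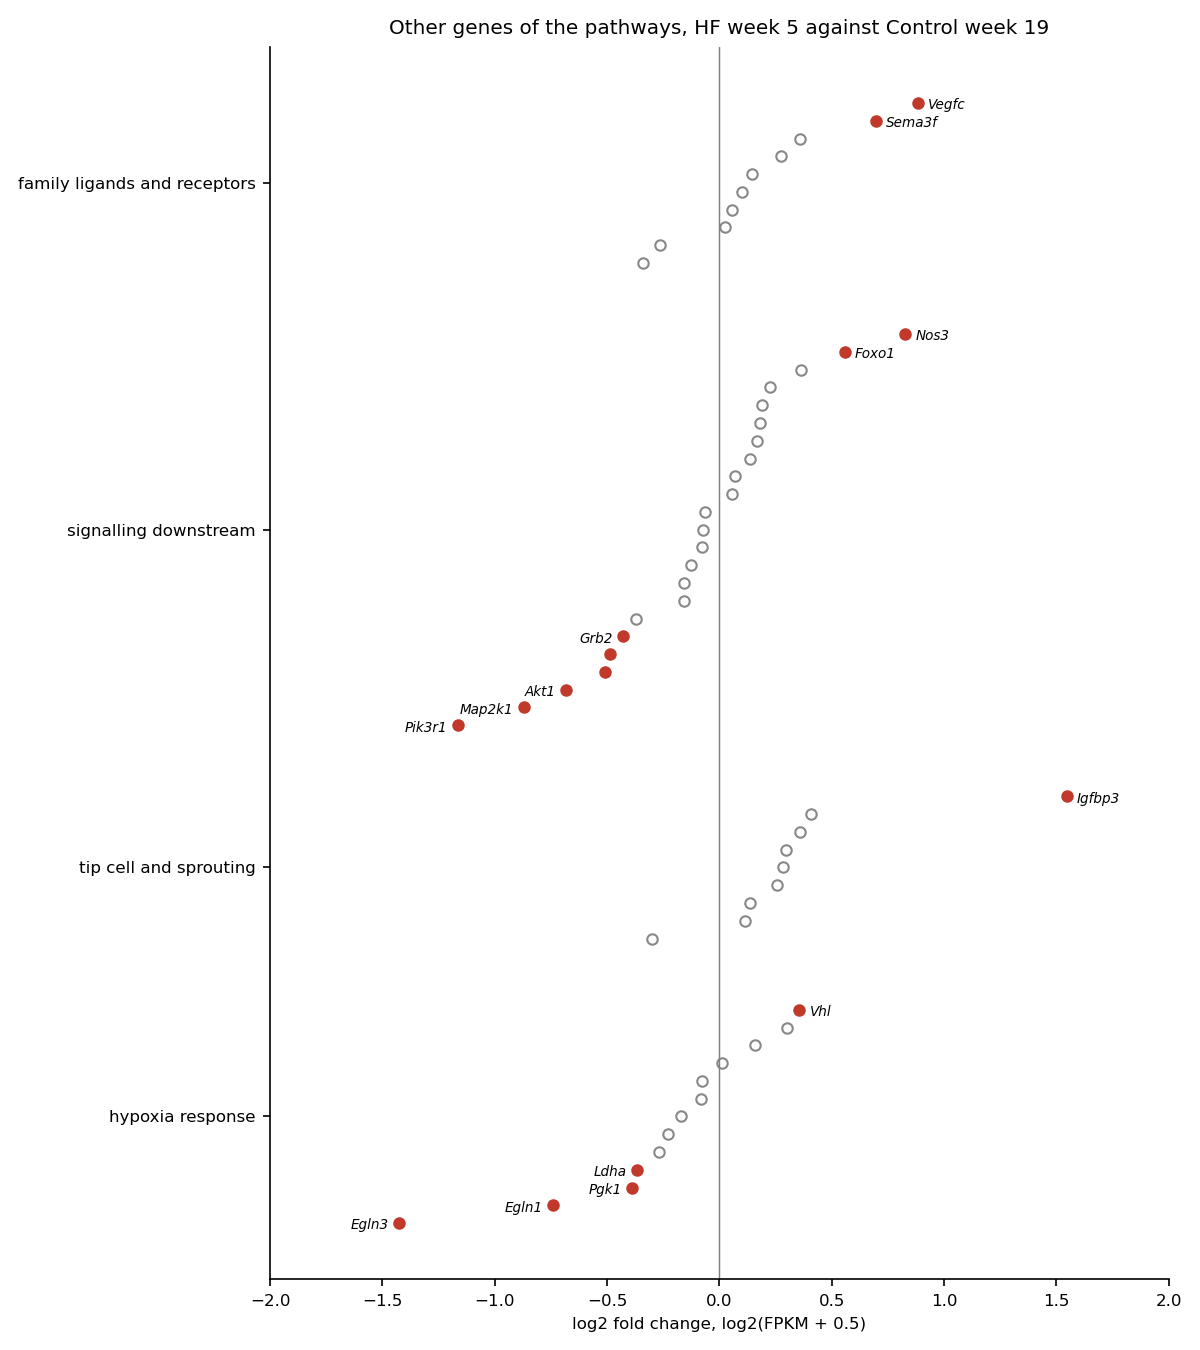
Log2 fold change between HF week 5 and Control week 19 (horizontal axis, log2(FPKM + 0.5) scale) of every tested gene on 4 lists of related genes, ordered by value within a list. Red points passed an adjusted p under 0.05 over all genes, and those given in the text carry a name; 6 of 23 signalling genes passed as lower and 2 as higher.

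The patterns of the 10 genes across libraries fell into loose groups. Over the 22 libraries other than HF week 3, the Pearson r of log2 values was 0.75 between Vegfa and Flt1, 0.73 between Kdr and Flt1, 0.69 between Vegfa and Kdr and 0.67 between Nrp1 and Tek, as a description, since the points share libraries and their biases. Among all genes tested, the 3 most like Tek were Synm (0.90), Apod (0.88) and the endothelial gene Egfl7 (0.88), and the 3 most like Aplnr were Pcdh12 (0.85), Ets1 (0.84) and Fmnl3 (0.84). For Vegfa they were Lama5 (0.93), Ppifos (0.91) and Tjap1 (0.90), for Vegfb Pkig (0.97), Mdh2 (0.96) and Txn2 (0.96), and for Apln G0s2 (0.85), Cyp4b1 (0.84) and Sco1 (0.81). Kdr was closest to Kif26a (0.88), Flt1 to Cyyr1 (0.92), Nrp1 to Gimap6 (0.86), Angpt1 to A230050P20Rik (0.83) and Angpt2 to 2410002O22Rik (0.70).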

How the data were processed

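Poly(A)-enriched RNA of mouse hearts was sequenced as read pairs. The authors aligned reads with TopHat to the mouse genome mm9 and deposited FPKM from Cuffdiff, 1 column per library; the annotation and the scaling between libraries are not given in the sources used here. The week in a column's name gave its group. The 5 columns named for the week 5 controls were left out because 4 samples carry that label, and Recovery week 9 has 2 columns but 3 labelled samples. The filter was a mean of at least 0.5 FPKM. Tests were run on log2(FPKM + 0.5) with limma 3.58.1 in R 4.3.3: 1 mean per group, 16 residual degrees of freedom, eBayes with a trend, two-sided, Benjamini-Hochberg over 12759 genes. Fold changes on that scale understate those of low genes. Ratios were tested by exact permutation (scipy 1.17.1). The fit was tested on simulated data.

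Absolute depth is unknown. Relative depth, from steps between low values, ran from 0.728 to 1.40 in 23 libraries, and the spread between libraries gives the precision. Transcript length and GC content came from GENCODE for 11944 genes. All 10 genes are named, pathway genes where they passed (2 are not reported here), and the closest genes by Pearson r. The genes and lists were chosen with earlier results of these data known. Alternatives were other pseudocounts, filters, scalings, fits of only the compared groups, and leaving out libraries.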

Additional observations from a re-analysis of the deposited data

Results flagged for a closer look

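2 values among 26 sets of 5 libraries stood far from the others of their group, where chance flags about 1 in 20. Kdr was at 18.0798 FPKM in Control week 19 library 4, with the nearest other control at 15.2 FPKM. Aplnr was at 12.0696 FPKM in Control week 19 library 5, with the nearest other control at 6.68 FPKM.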

How the results depend on the processing

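No paired analysis was possible because the columns carry no link to the labelled replicates. Tek in HF week 5 against Control week 19 kept its direction and passed in all 20 alternatives (0.32 to 0.96, adjusted p 7.81e-05 to 0.0381, limma). Absolute depth is unknown and no counting error can be given; groups of 2 libraries, and a library left alone in a group, borrow the spread of the others. Where a value moved, the cause was not tested unless given. Alternatives on transcript length and GC, on the 3 libraries high in atrial genes, and on single libraries of HF week 3 and Recovery week 7 were chosen after seeing the data.

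The number of all genes called in HF week 5 against Control week 19 was 3062, and 6210 after centring on the endothelial markers. With single libraries left out it ran from 1355 (without HF library 1) to 3652. From HF week 5 to Recovery week 19 it was 3092, 6046 after centring, and 1545 (without HF library 1) to 3255. Where the HF week 3 libraries were left out of the fit, these 2 numbers were 4320 and 4325, so the share of all genes called depends on them. Between Recovery week 19 and Control week 19 it was 3, then 5 with length and GC trends removed, 5 without the 3 libraries high in atrial genes, and 3 to 5 with single libraries left out (5 without Recovery library 5). HF week 3 against Control week 19 went from 6471 to 4192 with only the compared groups fitted, and from 3830 (without HF week 3 library 1) to 7995 with single libraries left out. HF week 3 against HF week 5 went from 2732 to 1402 without a filter, which adds genes tested, to 4553 after centring, to 8 with only the compared groups, and from 166 to 6743 without HF week 3 library 1 or 2. Recovery week 7 against HF week 5 went from 1888 to 1152 without a filter, 5895 after centring, 319 with only the compared groups, and 380 to 2153 with single libraries left out. Against Control week 19, Recovery week 7 went from 6 to 14 without a filter and 10 with quantile normalization, Recovery week 11 from 19 to 9 without a filter and 135 with only the compared groups, and Recovery week 13 from 10 to 399 with only the compared groups.

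Of 785 alternative values of single genes, 710 kept their direction and side of the threshold, 28 no longer passed, 28 passed anew and 19 changed sign. Without the 3 libraries high in atrial genes, Kdr (0.17) and Angpt2 (0.033) turned in HF week 5 against Control week 19, and Vegfa (−0.0028), Kdr (−0.0079) and Apln (−0.08039) in Recovery week 19 against HF week 5. Centring on the endothelial markers turned Angpt1 (−0.044) at HF week 5, Tek (−0.13) at HF week 3 and Angpt2 (0.39) in Recovery week 19 against HF week 5, where quantile normalization gave 0.042. With single libraries left out, HF week 5 against Control week 19 ran from −0.72 to 0.17 for Kdr and −0.35 to 0.0418 for Angpt2. Recovery week 19 against HF week 5 ran from −0.0028 to 0.70 for Vegfa, −0.0079 to 0.88 for Kdr, −0.22 to 0.17 for Angpt2 and −0.08039 to 0.75 for Apln. Recovery week 19 against Control week 19 ran from −0.14 to 0.068 for Vegfb and −0.20 to 0.12 for Aplnr. The log2 ratios ran from −1.14 to 0.022, −0.0616 to 1.10 and −0.16 to 0.11 for Angpt2 to Angpt1 (HF week 5 against control, Recovery week 19 against HF week 5, and Recovery week 19 against control). In the same order they ran from −0.51 to −0.13, −0.39 to 0.33 and −0.74 to −0.02 for Vegfa to Vegfb, and from −0.28 to 0.35, −0.26 to 0.37 and 0.04 to 0.13 for Flt1 to Kdr.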
